A study of Mus musculus with 24 samples.

Results

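The genes described here are 32 mouse genes of the endoplasmic reticulum (ER): chaperones, translocon subunits, genes of ER-associated degradation (ERAD) and sensors of the unfolded protein response (UPR). They were taken by symbol from a written list, mapped to Ensembl identifiers, and make up 32 of the 46517 gene entries in the count table. PolyA RNA was sequenced from βTC3 cells, an insulinoma line from the Rip-Tag2 mouse model of pancreatic neuroendocrine tumours. All 3 lines carried a PB-31 plasmid: PB-31 itself (control line), PB-31 with the miR-23b cluster (miR-23b line) or PB-31 with miR-137 (miR-137 line). Each line was grown without doxycycline (DOX) or with DOX at 2 µg/ml for 7 d. Both miRNA lines were also grown for 7 d with DOX and another 7 d after its withdrawal. That gives 8 groups of 3 libraries, 24 in all. The sources used here do not say whether a line is a single clone, they list no withdrawn control culture, and they do not give the age of the untreated cultures.

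Libraries held 15759849 to 24144737 counts in genes, and no pair of libraries of a group was a duplicate. Mir27b had 1379 to 2008 counts per library of miR-23b cells grown with DOX, against at most 12 in any library of the other 7 groups. Mir23b and Mir24-1 reached 850 to 1201 and 1619 to 2422 counts there, while Mir137 was listed at 0 in every library. Mature miRNAs are too short for this kind of library and were not measured. The 12 beta cell markers summed to 52125 to 77952 TPM (a unit of the authors scaled by transcript length and library) per library. Summed levels of acinar markers stayed at or below 0.78 TPM and those of leukocyte markers at or below 2.95 TPM, and Prss2, Amy2a5 and Cd3e were at 0 counts in all groups.

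Secretory proteins enter the ER through the SEC61 translocon and are folded there by the HSP70 chaperone BiP, encoded by Hspa5, by lectin chaperones and by protein disulfide isomerases. Proteins that fail to fold are passed back to the cytosol by ERAD and destroyed. When unfolded proteins accumulate, IRE1 (Ern1), PERK (Eif2ak3) and ATF6 (Atf6) start the UPR, in which spliced XBP1 and cleaved ATF6 raise transcription of chaperone and ERAD genes. Beta cells fold large amounts of proinsulin and are known for their dependence on this system. Splicing of Xbp1, cleavage of ATF6 and phosphorylation of PERK are not visible in gene counts.

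The promoter elements through which ATF6 and XBP1 are known to act were located first. RefSeq promoter windows on GRCm38.p6, from 250 bases before to 50 bases after the start, were available for 26 of the 32 genes. Both strands were searched for the ER stress element ERSE (CCAAT and CCACG with any 9 bases between them), for ERSE-II (ATTGG and CCACG with any 1 base between them) and for the UPR element UPRE (TGACGTGG), and none of the sites listed here overlaps another. ERSE was found in 9 of the 26 genes (34.6%) and in 37 of the 27025 genes with a window (0.137%). ERSE-II was found in 2 of 26 (7.69%) against 12 of all genes (0.0444%), and UPRE in 0 of 26 against 193 of all genes (0.714%). The stretches below show the element in capitals with flanking bases on either side, 5′ to 3′ on the strand named.
Hspa5, chr2:34772020-34772048, plus strand: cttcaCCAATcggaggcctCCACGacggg
Hsp90b1, chr10:86705633-86705661, minus strand: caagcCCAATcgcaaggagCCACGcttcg
Hsp90b1, chr10:86705528-86705556, plus strand: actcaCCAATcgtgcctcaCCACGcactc
Pdia6, chr12:17266486-17266514, plus strand: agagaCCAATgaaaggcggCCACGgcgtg
Creld2, chr15:88819515-88819543, minus strand: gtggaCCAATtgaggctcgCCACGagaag
Derl3, chr10:75893237-75893265, minus strand: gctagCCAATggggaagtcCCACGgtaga
Herpud1 (ERSE-II), chr8:94386368-94386396, plus strand: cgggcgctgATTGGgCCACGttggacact
Dnajc3, Calr, Canx and Syvn1 also had an ERSE, and Dnajb11 had an ERSE-II. These are matches of letters only. The 250 bases before the start of Hspa5, with its ERSE in capitals, and of Sec61b, which held none of the 3 elements and whose DOX response in the miR-23b line differed most from that of the control line, are shown next.
Hspa5, chr2:34771840-34772089, plus strand: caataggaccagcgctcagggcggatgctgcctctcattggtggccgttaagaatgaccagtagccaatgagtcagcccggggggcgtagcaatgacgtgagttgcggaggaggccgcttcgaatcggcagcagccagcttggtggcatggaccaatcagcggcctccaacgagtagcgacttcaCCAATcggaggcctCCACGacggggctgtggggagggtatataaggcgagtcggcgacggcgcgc
Sec61b, chr4:47474411-47474660, plus strand: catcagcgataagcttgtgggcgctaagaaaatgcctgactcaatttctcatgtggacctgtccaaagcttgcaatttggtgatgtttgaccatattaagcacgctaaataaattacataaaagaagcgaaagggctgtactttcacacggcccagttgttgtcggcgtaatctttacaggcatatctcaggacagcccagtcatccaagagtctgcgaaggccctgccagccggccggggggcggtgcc

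Per length, Hsp90b1, the ER member of the HSP90 family, was the most abundant of the 32 in the control line without DOX, at 914 ± 31.8 TPM (SD, n = 3). Calr followed at 856 ± 16.9 TPM, Hspa5 at 719 ± 25 TPM, Ssr2 at 527 ± 6.98 TPM, Canx at 506 ± 6.80 TPM and P4hb at 475 ± 19.2 TPM, and the 3 libraries of each of these genes lay apart from those of its neighbours in the order. Atf6 at 8.33 ± 0.37 TPM and the ERAD gene Derl3 at 1.04 ± 0.113 TPM were the least abundant. Derl3 rests on few reads, with 128 counts over the 3 libraries of its lowest group. All 32 genes passed the filter on low counts and were tested. Together they took 0.977% to 1.013% of all gene counts in the control line without DOX and 1.13% to 1.19% with DOX. The range in the miR-23b line went from 1.015% to 1.036% without DOX to 1.08% to 1.12% with DOX and 1.171% to 1.202% after withdrawal. In the miR-137 line it went from 0.992% to 1.03%, to 1.10% to 1.13% and to 1.21% to 1.28%. Levels per library are given below as CPM (counts scaled to the TMM-adjusted size of each library) and fold changes as log2 with their standard error (SE).

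**Figure D1:**
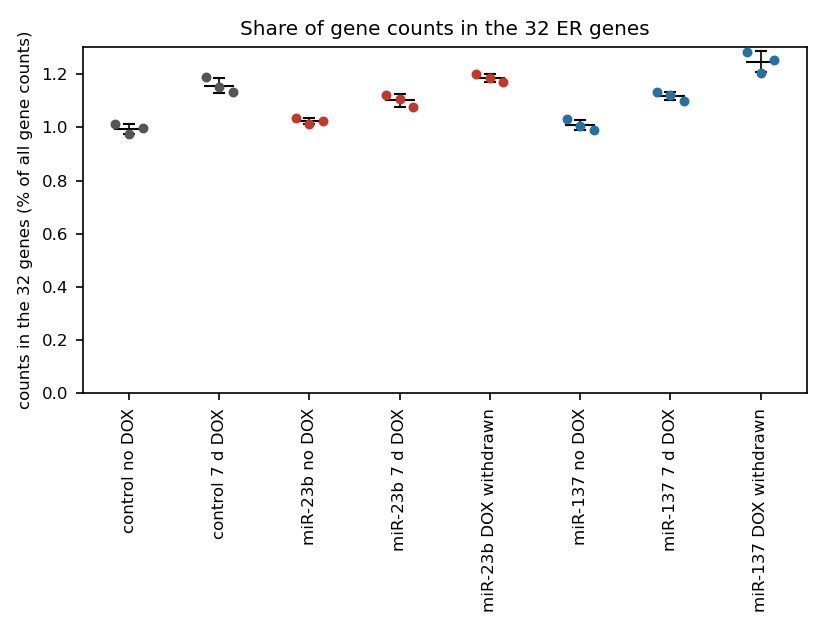
Share of all gene counts (%, y axis) taken by the 32 genes in each of the 24 libraries (points), with the mean and SD of the 3 libraries of each group (lines). Every DOX library and every library after withdrawal lies above the no DOX libraries of its own line, and the libraries after withdrawal lie above those with DOX.

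Most of these genes had higher RNA with DOX in cells carrying only PB-31. In the control line 22 of the 32 were higher with 7 d DOX than without it, 2 were lower and 8 did not pass the test (edgeR's quasi-likelihood F test, Benjamini-Hochberg adjusted p below 0.05 over all genes). In the same comparison 37.8% of all 14866 genes tested passed, 18.5% higher and 19.3% lower. The median log2 fold change was 0.175 over the 32 genes and 0.01 over all genes tested. Higher were Hspa5, Hsp90b1, Hyou1, Dnajb11, Dnajc3, Sdf2l1, P4hb, Pdia3, Pdia4, Pdia6, Creld2, Calr, Manf, Ern1, Xbp1, Edem1, Derl3, Sec61a1, Ssr1, Ssr2, Spcs2 and Wfs1, and lower were Herpud1 and Derl1. The call of Dnajb11 was lost without control no DOX replicate 1 (adjusted p = 0.0606), control no DOX replicate 2 (0.279) or control 7 d DOX replicate 1 (0.281), and that of Spcs2 without control 7 d DOX replicate 1 (0.0931). The p-values measure the spread between 3 libraries plated in triplicate, which may be technical. No date or plate is given, so DOX and the day of culture or preparation cannot be told apart.

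With DOX in the miR-23b line 15 of the 32 genes were higher, 8 were lower and 9 were not called, where 57.4% of all genes tested passed (28.8% higher and 28.6% lower). The median was 0.05 over the 32 genes and 0.01 over all genes. Of the 12 beta cell markers 3 were higher and 8 lower in this response, against 5 and 2 in the control line and 6 and 3 in the miR-137 line, and their part in the members' counts was not tested. The miR-137 line had 22 higher, 6 lower and 4 not called, where 42.9% of all genes passed (21.0% higher and 21.8% lower), and the median was 0.14 against -0.00 over all genes. Called higher in all 3 lines were 9 genes: Derl3, Ern1, Hspa5, Hyou1, Pdia3, Pdia4, Sdf2l1, Sec61a1 and Xbp1. Derl1 and Herpud1 were called lower in all 3. P4hb, Spcs2 and Ssr2 were called higher in the control and miR-137 lines and lower in the miR-23b line, and 7 more (Calr, Creld2, Dnajc3, Edem1, Manf, Pdia6 and Wfs1) were called higher in the first 2 lines and not called in the miR-23b line. These patterns across lines were counted for the 32 genes only, so their share over all genes is not known here. On the authors' TPM, which shifts the median of all genes by 0.07 in the miR-23b response, P4hb had a log2 change of 0.01 (adjusted p = 0.751, limma) there, so its lower call depends on the scaling, and Spcs2 had -0.07 (0.209).

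**Figure D2:**
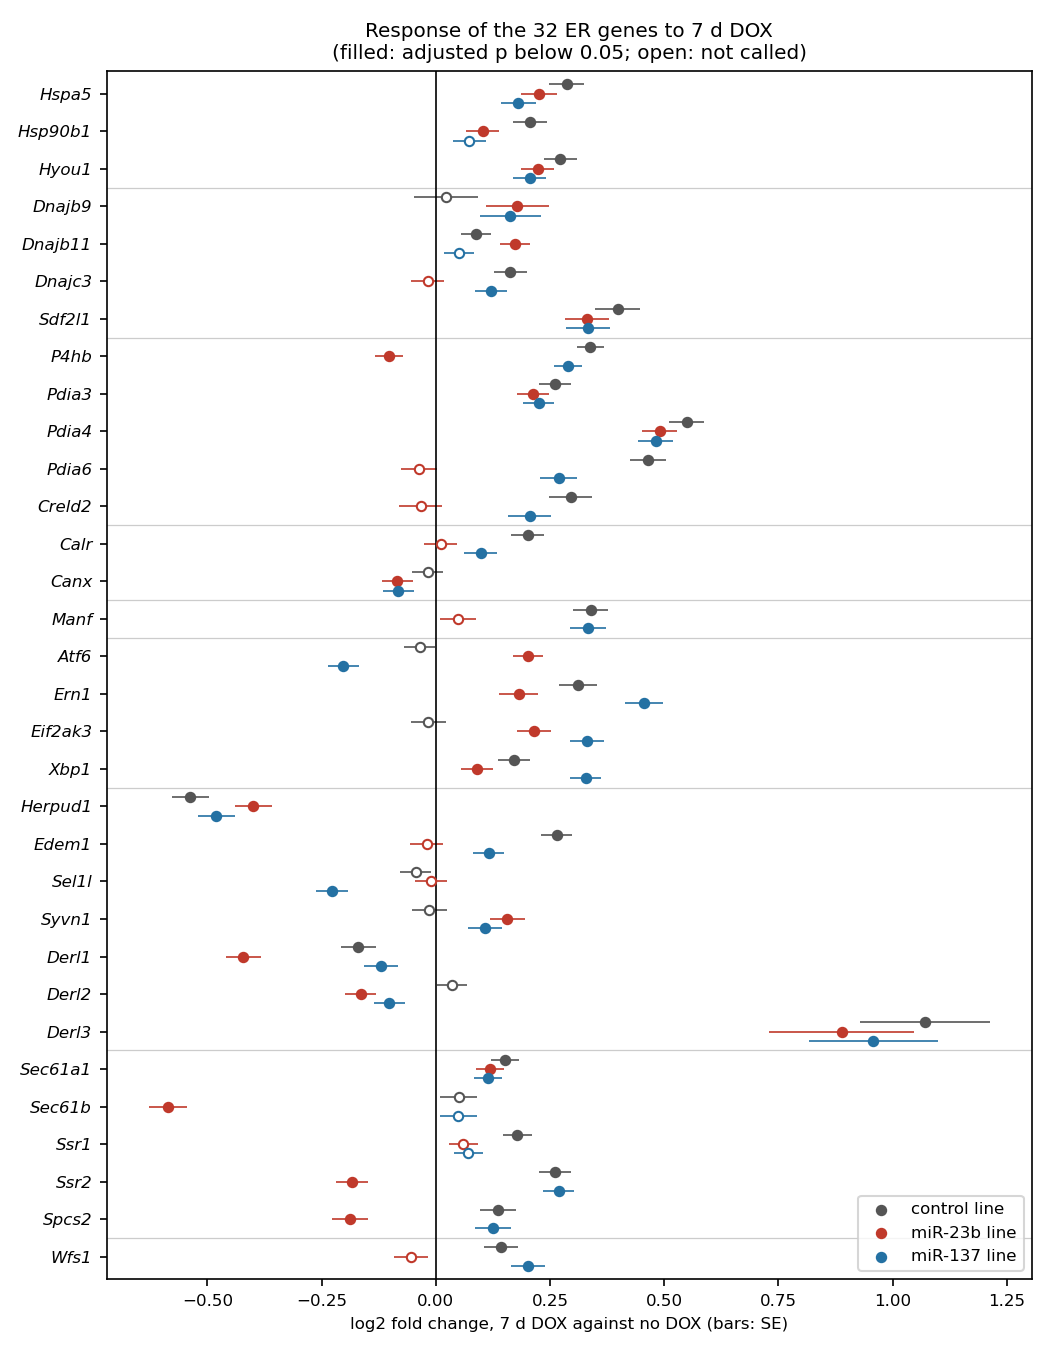
Log2 fold change of each of the 32 genes with 7 d DOX against no DOX (x axis, bars are SE) in the control, miR-23b and miR-137 lines, ordered by role. Filled points passed an adjusted p below 0.05. Most grey and blue points lie right of 0, and red points of Sec61b, Derl1, Ssr2, Spcs2 and P4hb lie left of it.

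All 3 lumenal chaperones rose in the control and miR-23b lines and 2 of 3 in the miR-137 line. Hspa5 stood at 962, 910 and 908 CPM in the control line without DOX and at 1171, 1131 and 1090 CPM with DOX. It stood in the miR-23b line at 1009, 956 and 965 CPM without and 1200, 1135 and 1090 CPM with DOX. The miR-137 line had 1022, 963 and 958 CPM without and 1140, 1109 and 1086 CPM with DOX. All DOX libraries were above all no DOX libraries of their line, and the log2 changes of Hspa5 were 0.29 (SE 0.04), 0.23 (0.04) and 0.18 (0.04), with adjusted p of 1.1e-07, 3.95e-06 and 0.000179 in edgeR's test. Hyou1, a large HSP70-like chaperone, rose by 0.27, 0.22 and 0.21. Hsp90b1 rose by 0.21 in the control line and 0.10 in the miR-23b line, and its change of 0.07 in the miR-137 line was not called (adjusted p = 0.107). Exons of other genes cover 10.3% of the exon bases of Hsp90b1 on the opposite strand and 5.38% on the same strand. The miR-23b call of Hsp90b1 was lost without miR-23b no DOX replicate 2 (0.062) or miR-23b 7 d DOX replicate 1 (0.0795).

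The J-domain co-chaperones, which feed clients to BiP, and their partner Sdf2l1 differed among themselves. Sdf2l1 rose by 0.40, 0.33 and 0.33 in the control, miR-23b and miR-137 lines, and in the miR-23b line its libraries went from 68.7, 69.2 and 65.5 CPM to 81.8, 88.4 and 85.7 CPM. Dnajc3, a co-chaperone known as an inhibitor of PERK, rose by 0.16 in the control and 0.12 in the miR-137 line, with a value of -0.02 (not called) in the miR-23b line. On the authors' TPM Dnajc3 was called higher in the miR-23b line, at 0.09 (adjusted p = 0.0309, limma), and lost its miR-137 call (0.0532). Dnajb11 had a log2 change of 0.09 in the control line, 0.17 in the miR-23b line and 0.05 in the miR-137 line, of which the last was not called. Dnajb9, which binds IRE1, was called higher in both miRNA lines, at 0.18 and 0.16, but each of these calls was lost in 4 of 6 fits that left out 1 library. Those libraries were miR-23b no DOX replicates 1 and 3 and miR-23b 7 d DOX replicates 1 and 2 (adjusted p up to 0.0719), and miR-137 no DOX replicates 2 and 3 and miR-137 7 d DOX replicates 1 and 3 (up to 0.125).

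All 5 genes of the disulfide isomerase group rose in the control line, and all 5 in the miR-137 line, whereas 2 of 5 were called higher and 1 lower in the miR-23b line. Pdia4 stood at 125, 116 and 123 CPM in the control line without DOX and 187, 170 and 178 CPM with it. Its change was 0.55 (SE 0.04), 0.49 (0.04) and 0.48 (0.04) in the 3 lines, and neither miRNA line's response was called different from the control response (adjusted p = 0.433 and 0.499). Pdia6, an isomerase that also restrains IRE1 signalling, stood at 376 to 412 CPM in control cells without DOX and 561, 546 and 521 CPM with it.
Pdia6 in the miR-23b line had 437.9, 416 and 436.7 CPM without and 437.9, 416 and 404 CPM with DOX, so that these groups overlapped, and its log2 changes were 0.46, -0.04 (not called) and 0.27 in the 3 lines. P4hb, the classical protein disulfide isomerase, had 938, 888 and 882 CPM in control cells without DOX and 1140, 1154 and 1128 CPM with it. P4hb in the miR-23b line had 936, 878 and 921 CPM without and 870, 846 and 830 CPM with DOX, which put the DOX libraries at the lower end on this scale. Pdia3 rose by 0.26, 0.21 and 0.23, and the stress-induced ER protein gene Creld2 had 0.30, -0.03 (not called) and 0.21.

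The lectin chaperones, which hold glycoproteins during folding, moved little. Calr rose by 0.20 in the control and 0.10 in the miR-137 line and had 0.01 (adjusted p = 0.819) in the miR-23b line, and the miR-137 call was lost without miR-137 no DOX replicate 3 (0.11) or miR-137 7 d DOX replicate 1 (0.078) or 2 (0.0965). On the authors' TPM Calr was called higher in the miR-23b line too, at 0.13 (adjusted p = 0.00202, limma). Its membrane-bound relative Canx had log2 values of -0.02, -0.08 and -0.08. The last 2 were called, but these calls were lost in 5 and 6 of the 6 fits without 1 library, and on the authors' TPM the miR-23b value was 0.03 (adjusted p = 0.331, limma). The miR-23b call held only without miR-23b 7 d DOX replicate 1. Manf, a secreted protein released under ER stress, rose by 0.34 in the control line (129 ± 4.32 to 163 ± 6.04 CPM, SD, n = 3) and by 0.33 in the miR-137 line, and in the miR-23b line its value was 0.05 (adjusted p = 0.307). Opposite-strand exons of other genes cover 8.85% of the exon bases of Manf, and no source used here says whether counting took strand into account.

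The 3 UPR sensors did not move alike. Atf6 stood at 132, 121 and 121 CPM in control cells without DOX and 119, 125 and 121 CPM with it, groups that overlap. Its miR-23b libraries went from 135, 136.7 and 130 CPM to 155, 152 and 156 CPM, with all DOX libraries higher. Its miR-137 libraries went from 136.7, 134 and 135 CPM to 117, 122 and 114 CPM, with all DOX libraries lower. The log2 changes were -0.04 (SE 0.03, not called), 0.20 (0.03, adjusted p = 2.71e-06) and -0.20 (0.03, 6.09e-06).

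Ern1, the gene of IRE1, stood at 131, 135 and 125 CPM in control cells without and 153, 167 and 164 CPM with DOX. The miR-23b line had 130.6, 116 and 126 CPM without and 131.4, 142 and 149 CPM with DOX, and in the miR-137 line 122, 124 and 127 CPM without and 168, 171 and 173 CPM with DOX. DOX libraries were higher in all 3 lines, with log2 changes of 0.31, 0.18 and 0.46. The control call of Ern1 was lost on the authors' TPM (0.20, adjusted p = 0.0577, limma), and its miR-23b call on TPM centred on the median of the tested genes (0.15, 0.0985).

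Eif2ak3, the gene of PERK, stood at 74.2, 74.6 and 73.9 CPM in control cells without DOX and 75.8, 71.2 and 73.1 CPM with it. It went from 75.6, 79.0 and 77.6 to 91.3, 89.7 and 88.8 CPM in the miR-23b line, and from 79.3, 79.8 and 76.5 to 98.5, 96.1 and 102 CPM in the miR-137 line. The control groups overlap and the miRNA lines' groups do not, with log2 changes of -0.02 (adjusted p = 0.773), 0.22 and 0.33. An antisense gene covers 8.05% of its exon bases on the opposite strand.
Xbp1, the target of IRE1, went from 188, 175 and 182 to 215, 199 and 200 CPM in control cells, from 185, 186 and 185 to 198, 201 and 192 CPM in the miR-23b line, and from 196, 184 and 186 to 244, 241 and 225 CPM in the miR-137 line. All DOX libraries were higher, with log2 changes of 0.17, 0.09 and 0.33. The miR-23b call of Xbp1 was lost without miR-23b no DOX replicate 2 (adjusted p = 0.05) or 3 (0.0568), or without miR-23b 7 d DOX replicate 1 (0.0596) or 2 (0.0969).

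**Figure D3:**
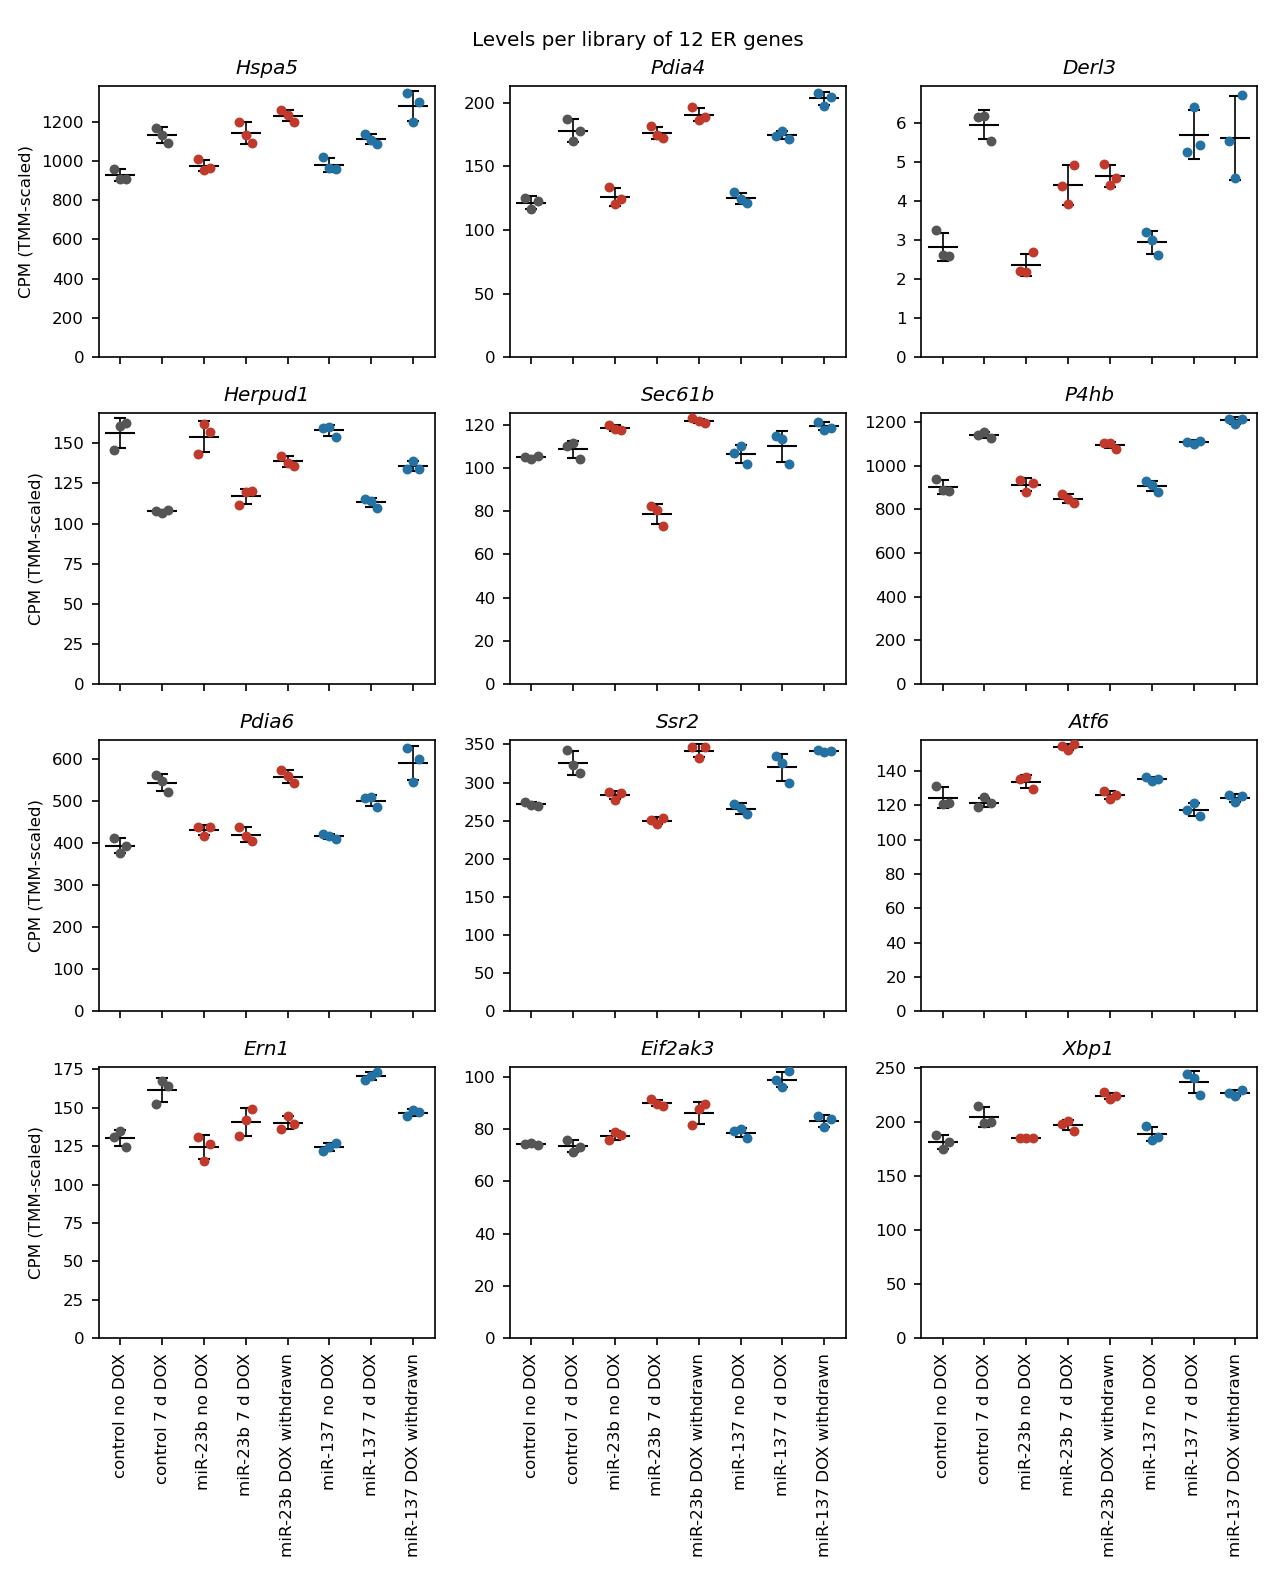
Levels of 12 of the genes (y axis, CPM of the TMM-scaled library, starting at 0) in every library of the 8 groups, as points with the mean and SD of the 3 libraries (lines). Sec61b falls to between 73.2 and 82.2 CPM under DOX in the miR-23b line, and all other libraries lie at 101.8 CPM or more, while Hspa5, Pdia4 and Derl3 are higher with DOX in each line and after withdrawal in both miRNA lines.

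Of the 32 genes the ERAD gene Derl3 had the largest rise in each line, and the ERAD gene Herpud1 the largest fall in the control and miR-137 lines. Derl3, a derlin of the membrane complex that passes proteins out of the ER, had 3.25, 2.62 and 2.59 CPM in control cells without DOX and 6.16, 6.18 and 5.54 CPM with it. It had 2.20, 2.19 and 2.69 without and 4.38, 3.92 and 4.93 CPM with DOX in the miR-23b line, and 3.20, 3.00 and 2.62 without and 5.25, 6.42 and 5.43 CPM with DOX in the miR-137 line. The groups do not overlap, and the fold changes of Derl3 were 2.10, 1.85 and 1.94 (log2 1.07, 0.89 and 0.96, SE 0.14, 0.16 and 0.14).
Herpud1, a membrane protein of the degradation complex and a known UPR target, moved the other way. It had 146, 161 and 163 CPM in control cells without and 108, 107 and 108 CPM with DOX. Its miR-23b libraries went from 143, 162 and 157 to 112, 120 and 120 CPM, and in the miR-137 line from 160, 160 and 154 to 115, 114 and 110 CPM. All DOX libraries were lower, with log2 changes of -0.54, -0.40 and -0.48 (SE 0.04 each).

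Derl1 was lower in all 3 lines, by log2 values of -0.17, -0.42 and -0.12, and in the miR-23b line it went from 118, 130 and 122 to 97.3, 89.0 and 90.9 CPM with no overlap. Its miR-137 call was lost without miR-137 no DOX replicate 1 (adjusted p = 0.106) or miR-137 7 d DOX replicate 1 (0.0594). Derl2 had 0.04 in the control line (not called), -0.16 in the miR-23b line and -0.10 in the miR-137 line, where the call was lost without miR-137 no DOX replicate 1 (0.0617). Edem1, which recognises trimmed glycans on misfolded proteins, rose by 0.26 in the control and 0.12 in the miR-137 line, with -0.02 (not called) in the miR-23b line. Its miR-137 call was lost on the authors' TPM (adjusted p = 0.124, limma). Sel1l and Syvn1 form the core of the ubiquitin ligase of ERAD. Sel1l had -0.04 and -0.01, neither called, in the control and miR-23b lines, and in the miR-137 line it went from 139, 136 and 136 to 116, 115 and 120 CPM, a log2 change of -0.23. On the authors' TPM Sel1l was called higher in the miR-23b line, at 0.12 (adjusted p = 0.027, limma). Syvn1 had -0.01 (not called), 0.16 and 0.11, and its miR-137 call was lost without miR-137 no DOX replicate 1 (0.0527) or 3 (0.064) or miR-137 7 d DOX replicate 2 (0.0884).

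Of the 5 translocon and signal peptidase genes, 4 rose in the control line and none fell, while in the miR-23b line 1 rose and 3 fell. Sec61b, the small beta subunit of the translocon, had 105, 104 and 105 CPM in control cells without DOX and 110, 112 and 104 CPM with it. Its miR-23b libraries had 120, 118 and 118 CPM without and 82.2, 80.3 and 73.2 CPM with DOX. The miR-137 line had 107, 110 and 102 CPM without and 115, 114 and 102 CPM with DOX. Only the miR-23b groups of Sec61b are apart from each other, with 1.502-fold lower levels under DOX (log2 -0.59, SE 0.04, adjusted p = 3.47e-15), and the other lines had 0.05 each, not called.
Ssr2, the beta subunit of the translocon-associated complex, had 275, 271 and 270 CPM without and 343, 323 and 312 CPM with DOX in control cells. Its miR-23b libraries had 288, 277 and 286 CPM without and 251, 245 and 254 CPM with DOX, so its libraries moved in opposite directions in these lines (log2 0.26 and -0.18), and the miR-137 line had 0.27. Another gene covers 12.8% of the exon bases of Ssr2 on the opposite strand. Spcs2, a subunit of signal peptidase, had 0.14, -0.19 and 0.12, Sec61a1, the pore subunit (8.16% of its exon bases covered on the opposite strand), 0.15, 0.12 and 0.12, and Ssr1 0.18, 0.06 and 0.07, the last 2 not called. The call of Spcs2 in the miR-137 line was lost without miR-137 no DOX replicate 2 (0.0527) or 3 (0.0586). Wfs1, the ER membrane protein wolframin, had 0.14, -0.05 (not called) and 0.20.

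The differences between responses were tested directly, as the DOX response of a miRNA line minus that of the control line, whose libraries both differences share. For the miR-23b line 14 of the 32 genes had a lower response, 3 a higher one and 15 were not called, where 37.6% of all genes tested passed (18.1% higher and 19.4% lower). The median difference was -0.11 over the 32 genes and -0.01 over all genes. The 14 were Dnajc3, P4hb, Pdia6, Creld2, Calr, Manf, Edem1, Derl1, Derl2, Sec61b, Ssr1, Ssr2, Spcs2 and Wfs1, of which P4hb, Pdia6, Creld2, Manf, Edem1, Derl2, Sec61b, Ssr2 and Spcs2 passed under all alternatives run. The 3 with a higher response were Atf6, Eif2ak3 and Syvn1, which also passed under all alternatives run. Of the other 5 lower ones, Dnajc3, Calr, Derl1, Ssr1 and Wfs1 lost the call on the authors' TPM (adjusted p = 0.343, 0.222, 0.0625, 0.847 and 0.191, limma). Ssr1 also lost it without any 1 of 8 libraries (adjusted p up to 0.18): the 3 of the control line without DOX, control 7 d DOX replicates 1 and 2, miR-23b no DOX replicate 1 and miR-23b 7 d DOX replicates 2 and 3. Sec61b differed by -0.64 (SE 0.06, adjusted p = 2.19e-11), Pdia6 by -0.50 (0.06, 3.24e-09) and Ssr2 by -0.44 (0.05, 2.6e-09). None of the 3 lumenal chaperones passed, with differences of -0.06 for Hspa5 (SE 0.05, adjusted p = 0.409), -0.10 for Hsp90b1 and -0.05 for Hyou1. By role, 3 of 5 disulfide isomerase genes and 4 of 5 translocon and signal peptidase genes were lower, and 3 of 7 ERAD genes.

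On the authors' TPM the same difference had 9 genes lower and 8 higher. Over all 14866 genes tested, higher calls outnumbered lower ones on that scale, with 1622 lower and 3774 higher (pseudocount of 1). Every library was also centred on the median of the tested genes, a choice made after seeing the data. After centring, no gene called there or in the main edgeR fit changed sign. Beta cell markers moved beside this result, with 5 of 12 lower and 2 of 12 higher in the miR-23b response than in the control response. Their part in it was not tested. Less RNA per cell and fewer cells of a type cannot be told apart in bulk samples.

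For the miR-137 line 2 of the 32 genes had a higher response than the control line and 4 a lower one, where 10.7% of all genes passed (5.90% higher and 4.78% lower), and the median difference was -0.05 against -0.00 over all genes. Eif2ak3 differed by 0.35 (SE 0.05, adjusted p = 1.83e-05), a call kept under all alternatives run. The others, Xbp1 at 0.16 and Pdia6 at -0.20, Sel1l at -0.18, Atf6 at -0.17 and Edem1 at -0.15, each lost the call in 2 to 10 of the 12 fits that left out 1 library. Xbp1 lost it without control no DOX replicate 1 (adjusted p = 0.0849), control 7 d DOX replicate 2 (0.0745) or 3 (0.0691), miR-137 no DOX replicate 2 (0.0758) or 3 (0.0586), or miR-137 7 d DOX replicate 1 (0.0853) or 2 (0.0716). Pdia6 lost it without control no DOX replicate 2 (0.0863), control 7 d DOX replicate 1 (0.0545) or miR-137 7 d DOX replicate 3 (0.0679). Sel1l lost it without replicate 3 of either control group (0.053 and 0.0525). Atf6 lost it without control no DOX replicate 2 (0.0874) or 3 (0.0766), control 7 d DOX replicate 2 (0.0792), miR-137 no DOX replicate 1 (0.0533) or miR-137 7 d DOX replicate 1 (0.054) or 3 (0.0783). Edem1 kept it only without replicate 1 of the control or the miR-137 line without DOX (highest adjusted p otherwise 0.149). Pdia6 and Edem1 had a lower, and Eif2ak3 a higher, response than the control line in both miRNA lines, which share the control libraries.

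**Figure D4:**
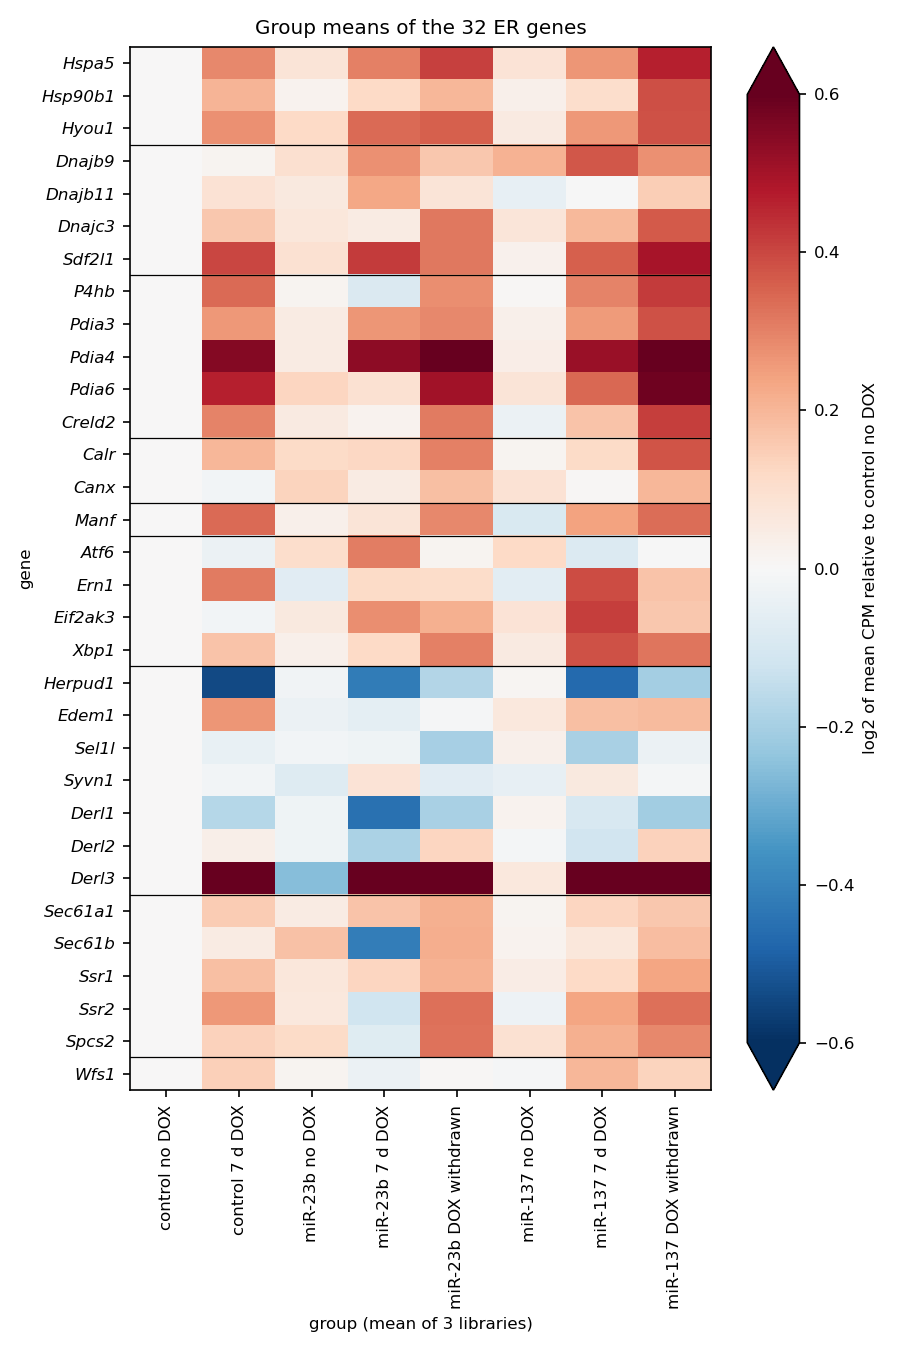
Group means of the 32 genes as log2 of mean CPM relative to the control line without DOX (colour, limited to 0.6 in either direction), with genes in rows by role and the 8 groups in columns. Hspa5, Hsp90b1, Pdia4 and Pdia6 have their highest mean in the miR-137 DOX withdrawn column, and Herpud1 and Derl1 are blue in every DOX and withdrawn column.

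Most of these genes were above the level without DOX when DOX had been withdrawn. After withdrawal 21 of 32 were higher and 4 lower in the miR-23b line than without DOX, where 39.8% of all genes passed (19.2% higher and 20.6% lower), with a median of 0.18 against 0.00 over all genes. The miR-137 line had 25 higher and 3 lower, where 43.4% passed (21.6% higher and 21.7% lower), with a median of 0.22 against 0.01. Of these, 20 were higher in both lines, and Atf6, Derl1 and Herpud1 lower in both, although the miR-23b call of Atf6 (-0.09) was lost without miR-23b no DOX replicate 1 (adjusted p = 0.148) or 2 (0.173) or miR-23b DOX withdrawn replicate 2 (0.183) or 3 (0.109). Calls shared by both lines were not counted over all genes. Summed beta cell markers stood at 75151 to 77952 TPM in the withdrawn miR-23b line, against 57702 to 58007 TPM without DOX, and at 62098 to 63880 TPM in the withdrawn miR-137 line, against 53935 to 57732 TPM. Singly, 3 of the 12 markers were higher and 4 lower in the first line, and 5 higher and 3 lower in the second, and their part in the members' counts was not tested. Derl2 lost its call on the authors' TPM in both lines (adjusted p = 0.176 and 0.21, limma), and Ern1 in the miR-23b line (0.338). The miR-23b call of Atf6 was also lost with library totals (0.119), without a filter (0.121), with DESeq2 (0.0573) and on TPM (0.0575 with a pseudocount of 1). The age of the untreated cultures is not given, so time in culture and the DOX period cannot be told apart.

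Hspa5 reached 1261, 1234 and 1201 CPM in the withdrawn miR-23b line and 1349, 1197 and 1300 CPM in the withdrawn miR-137 line, above all no DOX libraries (log2 0.33 and 0.39). Pdia4 reached 197, 187 and 189 CPM and 208, 198 and 204 CPM (0.60 and 0.70). Derl3 stood at 4.96, 4.40 and 4.58 CPM and at 5.53, 4.58 and 6.72 CPM (0.98 and 0.93). Pdia6 was higher by 0.37 and 0.51 after withdrawal than without DOX. Herpud1 stood at 142, 138 and 136 CPM and 134, 139 and 134 CPM, between its 7 d DOX and no DOX libraries in each line (-0.15 and -0.22 against no DOX). Derl1 was lower than without DOX by log2 values of -0.17 and -0.23, and Sel1l in the miR-23b line by -0.18.

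Against 7 d DOX, 17 of 32 genes were higher and 4 lower after withdrawal in the miR-23b line, where 52.2% of all genes passed (26.4% higher and 25.8% lower). In the same comparison of the miR-137 line 19 were higher and 3 lower, where 29.5% passed (14.7% higher and 14.8% lower). The medians were 0.10 and 0.12, against 0.00 over all genes in both. Sec61b returned from 82.2, 80.3 and 73.2 to 123, 122 and 121 CPM in the miR-23b line (log2 0.63, SE 0.04), close to the 118 ± 1.18 CPM (SD, n = 3) without DOX, from which it differed by 0.04 (adjusted p = 0.458). Ssr2 went from 251, 245 and 254 to 347, 332 and 346 CPM (0.45) and Pdia6 from 437.9, 416 and 404 to 573, 558 and 541 CPM (0.41), both with no overlap. Atf6 fell from 155, 152 and 156 to 128, 124 and 126 CPM (-0.29), Sel1l by a log2 value of -0.17 and Dnajb11 by -0.16. Hspa5 at 0.11 and Pdia4 at 0.11 were called higher in this comparison, but on the authors' TPM both values were -0.00 (adjusted p = 0.937 and 0.978, limma). On that scale 10 of the 32 genes were higher and 10 lower. Of the 14866 genes tested, 2125 were higher and 5514 lower there (pseudocount of 1). The calls of Hspa5 and Pdia4 were also lost without miR-23b 7 d DOX replicate 3 (Hspa5 0.122, Pdia4 0.0539) or miR-23b DOX withdrawn replicate 1 (0.0923 and 0.102).

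The largest rises after withdrawal in the miR-137 line were those of Hsp90b1, from 1282, 1223 and 1232 to 1614, 1399 and 1534 CPM (0.28), Calr, from 1359, 1365 and 1288 to 1716, 1504 and 1592 CPM (0.26), and Herpud1 (0.26). Eif2ak3 fell from 98.5, 96.1 and 102 to 85.0, 80.6 and 83.6 CPM (-0.25) and Ern1 from 168, 171 and 173 to 144, 149 and 147 CPM (-0.22), both with no overlap. After withdrawal Eif2ak3 differed from its level without DOX by 0.08 (adjusted p = 0.0774), while Ern1 was 0.24 above it. Derl1 fell by a log2 value of -0.11, a call lost without miR-137 7 d DOX replicate 2 (0.122) or miR-137 DOX withdrawn replicate 1 (0.0511).

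Without DOX the lines differed little. Against the control line 5 of 32 genes were higher in the miR-23b line and 0 lower, where 6.37% of all genes passed (3.59% higher and 2.78% lower): Sec61b at 0.18 (SE 0.04, adjusted p = 0.00565), and Hyou1, Pdia6, Calr and Canx at 0.11 to 0.13, whose calls were lost in 3 to 6 of 6 fits without 1 library. Calr lost it without any 1 library and Pdia6 without any but control no DOX replicate 1. Hyou1, whose groups overlap, lost it without control replicate 2 or 3 or miR-23b replicate 1 or 3, and Canx without control replicate 2 or miR-23b replicate 1 or 3 (adjusted p up to 0.292 and 0.0884). Without DOX the miR-137 line had only Atf6 called (0.12, adjusted p = 0.0486), where 2.70% of all genes passed (1.89% higher and 0.814% lower), and that call was lost in 5 of 6 such fits (adjusted p up to 0.262), all but the fit without control replicate 1.

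The other genes of the pathway were read from a list of 81, of which 76 were tested. Their calls come from the main edgeR fit only, and none of the alternatives was read for them. In the control line 32 were higher with DOX and 12 lower, in the miR-23b line 26 and 25, and in the miR-137 line 24 and 15. Over all genes tested, 18.5% were higher and 19.3% lower in the control line, 28.8% and 28.6% in the miR-23b line, and 21.0% and 21.8% in the miR-137 line. The list of 11 genes of the PERK branch and UPR-linked cell death had more lower than higher calls: 0 higher and 7 lower in the control line, 0 and 8 in the miR-23b line and 1 and 8 in the miR-137 line, with medians of -0.32, -0.60 and -0.26. Its transcription factor gene Atf4 went from 387, 388 and 382 to 295, 277 and 271 CPM in control cells (log2 -0.45), and had -0.38 and -0.33 in the miRNA lines. Chac1, a glutathione-degrading target of ATF4, had -0.87, -0.72 and -0.64, and Ppp1r15a, which directs dephosphorylation of eIF2α, -0.66, -0.66 and -0.56. Trib3 was lower in both miRNA lines (-0.65 and -0.68) and not called in the control line (-0.09). Creb3l2, an ER membrane transcription factor gene, was higher by 0.44, 0.40 and 0.63 in the control, miR-23b and miR-137 lines. Prdx4, an ER peroxiredoxin gene, was higher by 0.32, 0.34 and 0.34. Creb3l1, a relative of Creb3l2, was higher by 0.46 in the control and 0.57 in the miR-23b line, Uggt2 by 0.54 in the miR-23b line and Ssr4 by 0.39 in the miR-137 line.

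By the difference between the miR-23b and control responses 26 of the 76 other genes were lower and 10 higher, where 19.4% of all genes tested were lower and 18.1% higher. On the authors' TPM (pseudocount of 1) 1622 of all genes tested were lower and 3774 higher in this difference. The other genes were not counted on that scale, so how far their counts depend on the scaling is not known here. Among N-glycosylation genes 8 of 12 were lower and 1 higher, and of the 15 tested genes of signal recognition, translocation and signal peptidase 7 were lower and 1 higher. Pdia5, a further disulfide isomerase gene, went from 41.4, 38.3 and 37.4 to 26.7, 25.4 and 24.3 CPM with DOX in the miR-23b line and from 43.0, 38.9 and 39.0 to 45.8, 45.2 and 44.9 CPM in control cells, a difference of -0.77 (SE 0.07). Tmbim6, an ER membrane protein that restrains cell death, went from 682, 687 and 707 to 407, 381 and 398 CPM in the miR-23b line, a difference of -0.67 (SE 0.04). Fkbp14, an ER peptidyl-prolyl isomerase, differed by 0.75 (SE 0.12), Mbtps2, the site-2 protease gene that cleaves ATF6, by 0.39, the cell death gene Bbc3 by 0.34 and Trib3 by -0.56. For the miR-137 line 8 of the 76 were lower than in the control response and 5 higher, where 4.78% of all genes tested were lower and 5.90% higher. Named by the same rule were Creb3l1 at -0.76, Trib3 at -0.59 and Uggt2 at -0.26 among the lower and Bbc3 at 0.39, Dad1 at 0.21 and Creb3l2 at 0.19 among the higher.

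Genes with and without an ERSE or ERSE-II were then set side by side. Of the 11 with a match 8 were higher and 1 lower with DOX in the control line (median 0.20), and of the 15 with a window and no match 10 were higher and 0 lower (median 0.17). For the miR-23b line the counts were 5 and 2 of 11 (median 0.01) against 7 and 4 of 15 (median 0.06), and for the miR-137 line 7 and 2 of 11 (median 0.11) against 11 and 2 of 15 (median 0.20). Among all genes tested, 18.5% were higher and 19.3% lower with DOX in the control line. The shares were 28.8% and 28.6% in the miR-23b line and 21.0% and 21.8% in the miR-137 line. After withdrawal in the miR-137 line, against no DOX, 9 of 11 with a match were higher (median 0.36) and 12 of 15 without one (median 0.19), where 21.6% of all genes tested were higher. The genes with a match include Derl3 and Hspa5, which rose in all 3 lines, and Herpud1, which fell in all 3.

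The 3′ untranslated regions were searched for matches to the seeds of miR-27b-3p, miR-24-3p and miR-137-3p, since such matches are the usual way a miRNA lowers its targets. Mature sequences from RefSeq on GRCm38.p6, with the seed (bases 2 to 8) in capitals, show that no seed is shared.
miR-27b-3p, chr13:63300760-63300780, plus strand: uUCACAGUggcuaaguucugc
miR-24-3p, chr13:63301251-63301272, plus strand: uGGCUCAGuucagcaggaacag
miR-137-3p, chr3:118433901-118433923, plus strand: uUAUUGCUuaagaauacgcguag
miR-23b-3p, also encoded by the cluster, was not searched here, so genes without a match may hold sites for it. A match to bases 2 to 8, or to bases 2 to 7 followed by A, in the longest 3′ untranslated region of GENCODE M21 was counted. For miR-27b-3p it was present in 14 of the 32 genes (43.8%) and 29.6% of 12976 genes, for miR-24-3p in 9 (28.1%) and 26.5%, and for miR-137-3p in 2, Sel1l and Ssr1 (6.25%), and 15.6%.

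Of the 17 genes with a miR-27b-3p or miR-24-3p match 9 had a lower DOX response in the miR-23b line than in the control line and 1 a higher one, with a median difference of -0.13. Of the 15 without a match 5 were lower and 2 higher, with a median of -0.08, where 19.4% of all genes tested were lower and 18.1% higher. Lower calls that passed under all alternatives run were P4hb, Pdia6, Manf, Edem1 and Derl2 with a match, and Creld2, Sec61b, Ssr2 and Spcs2 without. Dnajc3, Derl1, Ssr1 and Wfs1 with a match, and Calr without, lost the call on the authors' TPM. The same split of the miR-137 difference had 4 of 17 lower and 0 higher with a match (median -0.07), and 0 of 15 lower and 2 higher without one (median -0.04). Over all genes tested, 4.78% were lower and 5.90% higher in that difference. The 4 lower calls, Pdia6, Sel1l, Atf6 and Edem1, were lost in 3, 2, 6 and 10 of 12 fits without 1 library. All genes were not split by match in either difference. Dnajc3, Atf6, Edem1, Derl1, Derl2 and Ssr1 had a match to both, and 5 of these 6 were lower in the miR-23b difference, with Atf6 higher. Of these 5, only Edem1 and Derl2 kept the call under all alternatives run. The sites below, with matched bases in capitals, are the longest match to each miRNA in Derl1 and Edem1.
Derl1, miR-24-3p site: tttctcctCTGAGCCAtgtgat
Derl1, miR-27b-3p site: gcattaaaACTGTGAtgtatgt
Edem1, miR-27b-3p site: cacgtgcaACTGTGAAtgaccc
Edem1, miR-24-3p site: gacatcctTGAGCCAtttctct
Of the 8 genes called lower in the miR-23b line with DOX, 4 had no match to miR-27b-3p or miR-24-3p: Sec61b, Ssr2, Spcs2 and Herpud1. The other 4, P4hb, Canx, Derl1 and Derl2, had a match to at least 1 of them. Of the 2 genes with a miR-137-3p match, Sel1l was lower in the miR-137 line with DOX (-0.23) and Ssr1 was not called (0.07). A match is a description of letters, and mature miRNAs were not measured here.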

How the data were processed

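Raw read counts per gene, not normalized, were deposited by the authors per sample and as a table of the whole series, with 0 differing values between them. Per the submitters' processing notes, the tools were STAR 2.4.0g, HTSeq 0.6.1, featureCounts, RSEM 1.2.19 and cutadapt 1.3, and the builds GRCm38 and mm10. No source used here says which tool made which table or whether strand was used. A second table deposited by the authors holds values scaled by length and taken here as TPM, from its column sums. It gave levels between genes and an alternative test with limma 3.58.1. Reads outside genes (9.62% to 12.1%) and reads with more than 1 alignment (25.4% to 27.7%) stayed out of library sizes.

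Groups and replicate numbers came from the labels. The tests used edgeR 4.0.16 under R 4.3.3: filterByExpr (14866 genes kept), TMM, 8 group means over all 24 libraries, the quasi-likelihood F test in 11 comparisons, Benjamini-Hochberg adjustment over all genes tested and a threshold of 0.05. The common coefficient of biological variation was 3%. The SE was derived from each log2 fold change and its F value. The test was checked on simulated data. The genes and the lists of other pathway genes and markers were chosen with earlier results of these data known. Values per library are given for Atf6, Ern1, Eif2ak3, Xbp1 and Hspa5 and for up to 3 genes in each direction with the largest change among those that passed and did not overlap, in the comparisons of DOX and of withdrawal. Other members named with values were added after seeing the data. Alternatives were DESeq2 1.42.0, RLE factors, library totals, no filter, a filter of 5 CPM in 3 libraries, only the groups compared, the replicate block, TPM with a pseudocount of 1 or 0.1 and leaving out each library. Counting error was not separated from the spread between libraries.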

Additional observations from a re-analysis of the deposited data

Results flagged for a closer look

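The direct tests of a difference in DOX response between lines picked out these results (edgeR, adjusted p below 0.05; 1 gene can appear for both miRNA lines). In the miR-23b line minus the control line the log2 differences were -0.64 for Sec61b, -0.50 for Pdia6, -0.44 for Ssr2, -0.44 for P4hb, -0.33 for Creld2, -0.32 for Spcs2, -0.29 for Manf, -0.28 for Edem1, -0.25 for Derl1, -0.20 for Derl2, -0.20 for Wfs1, -0.19 for Calr, -0.18 for Dnajc3 and -0.12 for Ssr1. They were 0.24 for Atf6, 0.23 for Eif2ak3 and 0.17 for Syvn1. The call of Ssr1 was lost in 8 of 12 fits that left out 1 library. In the miR-137 line minus the control line they were 0.35 for Eif2ak3, 0.16 for Xbp1, -0.20 for Pdia6, -0.18 for Sel1l, -0.17 for Atf6 and -0.15 for Edem1. The last 6 lost their calls in 0 (Eif2ak3), 7 (Xbp1), 3 (Pdia6), 2 (Sel1l), 6 (Atf6) and 10 (Edem1) of 12 such fits.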

How the results depend on the processing

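Sign changes in this section were counted only where the main edgeR fit or the alternative called the gene. None occurred with DESeq2, RLE factors, library totals, either filter, only the groups compared, the replicate block or 1 library left out. The replicate block lost 0 member calls and gained 7. The check for pairing by replicate number was passed in 0 of 9 comparisons (correlations of deviations -0.05 to 0.08). Replicate 1 nevertheless had the highest share of counts in the members in every group. In the control line without DOX the shares were 1.013%, 0.9767% and 0.9965% in replicates 1, 2 and 3. Hspa5 was also highest in replicate 1 of every group. Whether replicate numbers pair the libraries for the members alone was not tested. Library totals gave 5 higher in the miR-23b difference, 2 higher in the miR-23b line without DOX and 0 in the miR-137 line without DOX. No filter gave 2 lower in the miR-137 difference. DESeq2 and only the groups compared gave 0 in the miR-137 line without DOX.

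On the authors' TPM, with either pseudocount, 5 were lower in the miR-23b response, 8 higher and 9 lower in its difference, 1 higher in the miR-137 difference, 10 higher and 10 lower on miR-23b withdrawal against DOX, 1 higher in the miR-23b line without DOX and 0 in the miR-137 line. With a pseudocount of 1 and of 0.1, signs changed for Dnajc3 (0.0928 and 0.0983), P4hb (0.0101 and 0.0101), Canx (0.0334 and 0.0335) and Sel1l (0.118 and 0.12) in the miR-23b response, and Sec61a1 (0.0875 and 0.0877) in its difference. They changed for Hspa5 (-0.00402 and -0.00403), Hyou1 (-0.124 and -0.124), Pdia3 (-0.106 and -0.106), Pdia4 (-0.00221 and -0.00225), Sec61a1 (-0.0923 and -0.0925) and Ssr1 (-0.0402 and -0.042) on miR-23b withdrawal against DOX. Centred TPM, chosen after seeing the data, gave 1 higher in the miR-137 difference, 1 in the miR-23b line without DOX and 0 in the miR-137 line. The cause was not tested.

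Of all calls, the share higher was 67% on TPM and 61.4% on totals against 50.2% in the miR-23b response, 69.9% and 58.4% (39.1% centred) against 48.3% in its difference, and 27.8% against 50.6% on its withdrawal (median of all genes -0.105 with a pseudocount of 0.1). It was 33.7% on TPM and 37.5% on totals against 56.3% in the miR-23b line without DOX, 51.8% on totals against 69.9% in the miR-137 line, 39.5% on TPM against 49.9% for miR-137 withdrawal against no DOX, and without filter 66.5% against 55.2% in the miR-137 difference.

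Leaving out 1 library gave these ranges of higher and lower members: control 20 to 22 and 2, miR-23b 12 to 16 and 7 to 8, miR-137 18 to 22 and 3 to 5, miR-23b difference 3 to 5 and 13 to 15, miR-137 difference 1 to 2 and 1 to 4, and without DOX 1 to 5 (miR-23b) and 0 to 1 (miR-137) higher. Withdrawal gave 14 to 18 and 4 to 5 (miR-23b) and 15 to 19 and 2 to 4 (miR-137) against DOX, and 21 and 3 to 4 and 24 to 25 and 3 against no DOX.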
